A study of Mus musculus with 18 samples.

Results

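CpG-dense stretches of 500 bp that lie at gene starts and were nonetheless methylated in mouse embryonic stem cells (ESCs) were followed through acute deletion of Dnmt1 by whole-genome bisulfite sequencing (WGBS-seq). A bin of 500 bp was taken as dense when at least 40 distinct cytosine positions were covered on autosomes over the 18 libraries. It was called methylated when at least 60% of at least 30 calls were methylated in the pooled 7 control libraries of days 1 to 9, and at a gene start when it overlapped 1 kb on either side of a GENCODE vM1 start. Of 37957 dense autosomal bins, 4572 were methylated, and 339 of these lay at gene starts and are the bins described here. The other 4233 methylated dense bins lay away from gene starts and are used for comparison. The bins were thus chosen by their methylation in the control libraries of days 1 to 9. Their levels there are a description. Tests compared only control day 11 and the Dnmt1 KO libraries, but all 18 libraries, including those that chose the bins, set the spread.

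The 9 control libraries carry the genotype wild type in the labels and the 9 Dnmt1 KO libraries carry a deletion made by inducible Cre in cells with loxP sites on both Dnmt1 alleles. Both genotypes were sampled at days 1, 3, 6, 9 and 11, with 2 replicates a day except at day 6, which had 1 library for each genotype. All cells were grown in serum with LIF. The strain is E14 throughout the labels, but the methods name C57BL/6 for the floxed cells, so that a difference between lines cannot be told apart from the deletion in any comparison with control. The labels do not say whether replicates were separate cultures. The p-values therefore rest on the spread between these libraries, taken for most bins from all bins of like level and not from the bin itself. Libraries held 7190722 to 11158414 calls. The mitochondrial genome, which carries little methylation, read 0.228% to 0.467% methylated. Dense bins at the starts of the pluripotency genes Sox2, Klf4, Sall4 and Lin28a read 0% to 0.952% in control, and those of the differentiated cell markers Thy1 and Twist1 read 4.48% and 0.719%, so these starts do not tell the cell types apart. The other markers of both lists had no dense bin.

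Dnmt1 copies methylation from the parental to the daughter strand after replication, and without it CpG methylation is diluted as cells divide. De novo methyltransferases can add some methylation back. CpG-rich gene starts are mostly unmethylated in ESCs, and the known exceptions include genes that are used in germ cells, imprinted loci and gene copies made by retrotransposition.

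Stretches of 7 of the bins are shown to let the density and spacing of CpGs be seen. They comprise 5 germline genes, the imprinted Meg3, and Gm16327, a pseudogene start that was among the highest in Dnmt1 KO at day 9. Each stretch is the part of the bin outside annotated exons, at most 300 bases, read 5′ to 3′ on the strand of the gene from NCBIM37, with every CpG in capitals. The coordinates are chr17:50433000-50433299 for Dazl, chr9:50369031-50369330 for Tex12, chr8:108503320-108503499 for Dpep3 and chr5:135825896-135825999 for Fkbp6, all on the minus strand. On the plus strand are chr12:113209500-113209769 for Tdrd9, chr12:110779500-110779799 for Meg3 and chr1:21354200-21354499 for Gm16327.
Dazl: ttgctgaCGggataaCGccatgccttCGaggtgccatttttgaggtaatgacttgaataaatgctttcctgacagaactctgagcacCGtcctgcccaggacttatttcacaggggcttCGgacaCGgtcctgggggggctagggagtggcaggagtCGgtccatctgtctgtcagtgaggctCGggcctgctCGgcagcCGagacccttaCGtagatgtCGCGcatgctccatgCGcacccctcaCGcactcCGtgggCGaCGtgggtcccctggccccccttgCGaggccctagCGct
Tex12: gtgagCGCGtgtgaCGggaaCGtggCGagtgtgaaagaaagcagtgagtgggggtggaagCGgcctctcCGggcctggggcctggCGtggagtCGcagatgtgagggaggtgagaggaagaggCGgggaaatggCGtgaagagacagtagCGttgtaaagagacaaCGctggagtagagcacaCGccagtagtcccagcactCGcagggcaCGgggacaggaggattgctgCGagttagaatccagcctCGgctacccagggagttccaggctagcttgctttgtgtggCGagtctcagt
Dpep3: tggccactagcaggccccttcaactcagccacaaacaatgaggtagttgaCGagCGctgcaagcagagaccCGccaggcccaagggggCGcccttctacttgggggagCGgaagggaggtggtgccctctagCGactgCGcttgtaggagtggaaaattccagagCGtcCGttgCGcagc
Fkbp6: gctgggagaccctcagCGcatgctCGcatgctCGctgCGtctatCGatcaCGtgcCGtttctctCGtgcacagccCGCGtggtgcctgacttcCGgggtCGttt
Tdrd9: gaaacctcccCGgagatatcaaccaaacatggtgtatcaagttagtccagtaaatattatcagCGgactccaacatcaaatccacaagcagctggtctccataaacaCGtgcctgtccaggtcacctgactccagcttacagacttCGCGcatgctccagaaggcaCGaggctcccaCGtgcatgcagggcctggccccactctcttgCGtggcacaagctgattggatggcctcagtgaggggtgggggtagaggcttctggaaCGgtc
Meg3: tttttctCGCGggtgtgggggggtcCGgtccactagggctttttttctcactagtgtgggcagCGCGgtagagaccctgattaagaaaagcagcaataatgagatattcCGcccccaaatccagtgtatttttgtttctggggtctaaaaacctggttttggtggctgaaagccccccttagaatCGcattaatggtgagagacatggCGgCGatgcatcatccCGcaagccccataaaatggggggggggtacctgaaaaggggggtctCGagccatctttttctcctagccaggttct
Gm16327: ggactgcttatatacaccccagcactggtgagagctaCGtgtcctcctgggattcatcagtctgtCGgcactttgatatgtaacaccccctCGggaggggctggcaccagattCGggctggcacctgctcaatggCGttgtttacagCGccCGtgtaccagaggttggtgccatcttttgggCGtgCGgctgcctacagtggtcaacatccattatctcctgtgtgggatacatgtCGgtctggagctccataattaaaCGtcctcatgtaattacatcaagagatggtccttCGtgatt
The Dazl stretch ends 76 bp upstream of the annotated start and holds 20 CpGs in 300 bases. The Tex12 stretch lies downstream of the start, outside exons, with 19 CpGs. The Dpep3, Fkbp6 and Tdrd9 stretches end directly at the start, with 10, 12 and 9 CpGs. The Meg3 stretch begins 289 bp downstream of the start with 11 CpGs, and the Gm16327 stretch ends 385 bp upstream with 12.

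The 339 bins overlapped the starts of 351 genes, 313 near a single start and 26 near 2 starts. A gene start lay inside 170 of them (50.1%). Each bin was assigned to 1 gene, a protein-coding one where there was any and otherwise the nearest. In this way 167 bins belonged to protein-coding genes, 111 to pseudogenes, 29 to processed transcripts, 17 to miRNAs, 9 to lincRNAs, 4 to snRNAs and 2 to other small RNAs. An exon overlapped 305 bins (89.97%) and coding sequence overlapped 166 (49.0%), against 40.2% and 38.2% of the methylated dense bins away from starts, and 80.3% and 45.3% of the dense bins at gene starts under 20% in control. The whole bin was exonic in 93 (27.4%), against 14.98% away from starts and 8.83% of those under 20%. For 278 of the bins no other covered dense bin lay within 1 kb of the same start, and a dense bin under 20% in control lay at the same start for 24.

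The bins sat at the lower end of CpG density. They held a median of 23 CpGs with 54.6% GC, like the methylated dense bins away from starts with 23 CpGs and 53.2%, whereas the dense bins at gene starts under 20% in control held a median of 38 CpGs with 63.4% GC. The letters of a few motifs were searched on both strands: CACGTG, the core of an E-box, TCCCGC, a core bound by E2F6, and TGCCGC, the core bound by ZFP57 when methylated. CACGTG was present in 47 bins (13.9%), against 12.1% away from starts and 12.1% of all dense bins. TCCCGC was present in 90 (26.5%), against 19.96% and 47.7%. TGCCGC was present in 83 (24.5%), against 36.7% and 35.0%. Of the stretches shown, those of Fkbp6 and Tdrd9 hold CACGTG, and that of Meg3 holds TCCCGC. The letters are a description of the windows. Bins with and without them had medians in Dnmt1 KO over days 6 to 11 of 19.4% and 21.1% for CACGTG, 19.02% and 22.45% for TCCCGC, and 18.05% and 22.35% for TGCCGC. The bins with each motif were also lower in control at day 11, at 75% against 77.4%, 74.5% against 78.9% and 76% against 77.8%, and the differences were not tested.

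Methylation of these bins fell early and most of what was lost was gone by day 3. For a level per library, calls were summed over the bins without cytosines that had over 20 calls in any library, since the 3 bins with the most calls otherwise supplied 99.0% of the calls. In control, the libraries read 80.4% and 78.2% at day 1, 80.3% and 80.6% at day 3, 83.7% at day 6, then 79.3% and 80.01% at day 9, followed by 68.3% and 71.7% at day 11. In Dnmt1 KO they read 71.6% and 71.5% at day 1, 33.5% and 35.4% at day 3, 24.7% at day 6, then 22.7% and 26.3% at day 9, followed by 24.1% and 26.6% at day 11. Every Dnmt1 KO library from day 3 on lay below every control library, and the libraries of days 6 to 11 overlapped each other.

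At day 1 the Dnmt1 KO mean was 71.5% ± 0.125 (SD, n = 2). It was 34.4% ± 1.30 (SD, n = 2) at day 3 and 24.9% ± 1.59 (SD, n = 5) over days 6 to 11. In proportion to control of the same day, Dnmt1 KO held 90.2% at day 1 and 42.8% at day 3, then 29.5%, 30.7% and 36.2% at days 6, 9 and 11. Control itself was lower at day 11, at 69.98% ± 2.43 (SD, n = 2), than on the earlier days, and the level over all autosomes was lower there too, at 71.4% against 75.5% to 78.95%. The controls of days 1 to 9 had chosen the bins for a high level and that of day 11 had not, so the choice itself lifts the earlier controls. The level over all autosomes was not chosen in this way. How much of the drop in these bins at day 11, and of the proportions of control by day, comes from the choice cannot be told and was not tested.

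**Figure D1:**
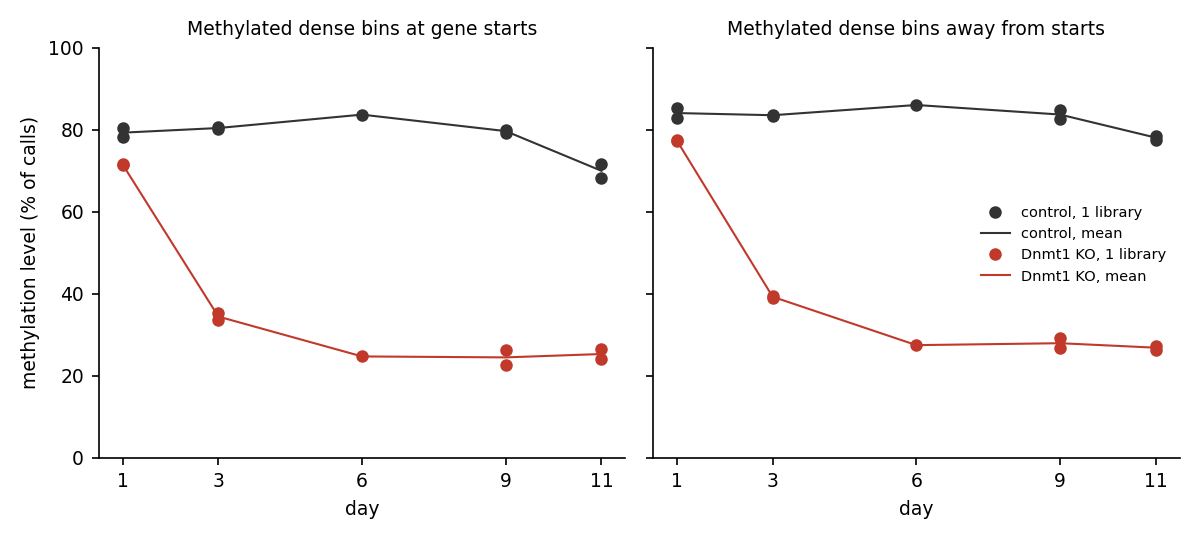
Methylation level in percent of calls (vertical axis) by day (horizontal axis) for the 339 bins at gene starts (left) and the 4233 methylated dense bins away from starts (right), with 1 point for each library and lines through the means of control (grey) and Dnmt1 KO (red). The bins at gene starts fall to 34.4% at day 3 and lie between 22.7% and 26.6% from day 6 to day 11.

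The methylated dense bins away from gene starts also lost most by day 3, and read higher. They read 77.3% ± 0.146 (SD, n = 2) in Dnmt1 KO at day 1, 39.3% ± 0.348 (SD, n = 2) at day 3 and 27.4% ± 1.103 (SD, n = 5) over days 6 to 11. The bins at gene starts lay below them in 9 of 9 Dnmt1 KO libraries and also in 9 of 9 control libraries, of which those of days 1 to 9 had chosen both kinds of bin. In proportion to control of the same day, the bins at gene starts and those away held 90.2% and 92.0% at day 1 and 42.8% and 47.0% at day 3. They held 29.5% and 31.9% at day 6, 30.7% and 33.4% at day 9, and 36.2% and 34.4% at day 11, where the order turned. The difference between the kinds of bin was not tested.

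Single bins spread widely around these means. Among bins with at least 5 calls, the median level was 76.9% in control at day 11 (287 bins), 76.9% in Dnmt1 KO at day 1 (311 bins), 30% at day 3 (278 bins) and 20.7% over days 6 to 11 (335 bins). The quartiles over days 6 to 11 were 10% and 33.7%. At these late days 83 bins (24.8%) read under 10%, 18 of them with no methylated call at all, and 20 (5.97%) read 50% or more. Away from gene starts 15.6% of bins read under 10% and 12.1% read 50% or more. The bins away also started higher, with medians of 84.6% in control at day 11 and 83.3% in Dnmt1 KO at day 1. The difference in late levels was not tested. Median calls in a bin were 3 to 11 in a library, so the spread between bins includes counting error, which alone is large at this depth.

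**Figure D2:**
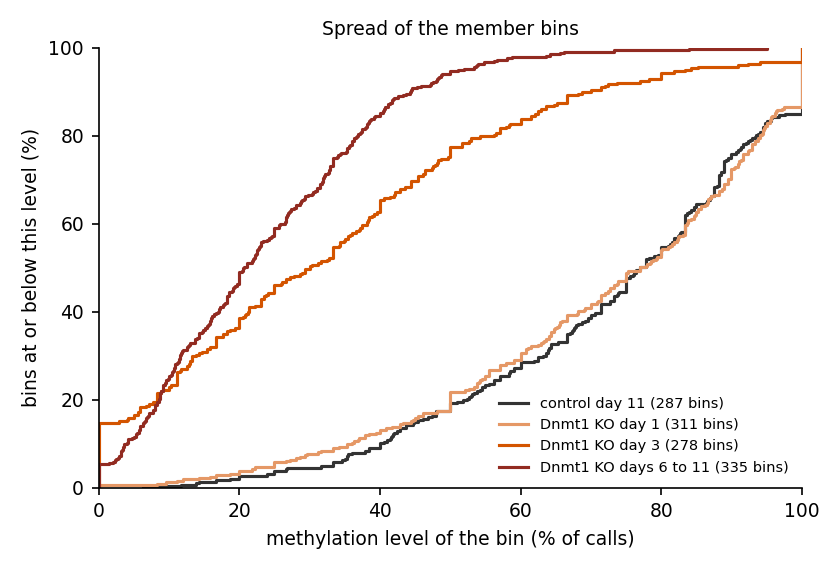
Share of the bins at gene starts in percent (vertical axis) that read at or below each methylation level in percent of calls (horizontal axis), for control day 11 and Dnmt1 KO at day 1, day 3 and days 6 to 11, over bins with at least 5 calls. The curves of control day 11 and Dnmt1 KO day 1 share a median of 76.9%, and the medians of the other 2 are 30% and 20.7%.

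In the test across all dense bins, a call needed a quasi-binomial fit with p under 0.05 after Benjamini-Hochberg adjustment, together with a change of 10 percentage points or more. At day 11, 245 of the 339 bins had at least 5 calls in each genotype. Dnmt1 KO was below control in 233 of them by value, with a median difference of -50.0 points, and 17 were called lower and 0 higher. At an unadjusted p under 0.05, 113 were lower. The count depended on the fit, with 71 lower when all bins of at least 20 positions were tested, 71 with the spread moderated toward 1 value and 116 by limma on log2 ratios. The share called was 0.916% of all 28286 dense bins tested and 6.25% of the methylated dense bins away from starts, against 6.94% of the bins at gene starts. At unadjusted p these shares were 8.66%, 51.1% and 46.1%.

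Over time within Dnmt1 KO, where the line is the same, days 6 to 11 were below day 1 in 297 of 308 bins by value, with a median difference of -50.5 points. Of these 59 were called lower (19.2%) and 0 higher, against 3.6% of all dense bins and 21.1% of those away from starts. The same 3 alternatives called 153, 137 and 101 lower. At unadjusted p 184 were lower (59.7%), against 13% and 59.5%. From day 1 to day 3 the median difference was -41.9 points, and 4 of 257 bins were called lower, against 0.204% of all dense bins and 1.16% of those away from starts. The alternatives called 42, 47 and 107 lower. At unadjusted p 106 were lower (41.2%), against 7.02% and 34.8%. From day 3 to days 6 to 11 it was -7.46 points over 275 bins. There 0 were called in either direction by the quasi-binomial fit, against 0.0162% of all dense bins and 0.116% of those away from starts. At an unadjusted p under 0.05, 37 were lower (13.5%), against 2.67% and 12.5%, and the alternatives called 0, 3 and 9 lower, with 8 higher by limma. The difference between these shares was not tested.

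The fit also called few bins in simulated data, where the change was known. There the numbers of calls were those of the real bins, capped in the deepest. The fit of days 6 to 11 against day 1 called 16.2% of methylated bins lowered by 60 points and 1.18% of those lowered by 30 points. All methylated bins started at the same level, and libraries of a group shared their level. The real bins differ in both, so these shares need not hold for them. The 17 called at day 11 fell to 5 without control replicate 1, to 6 without control replicate 2, to 9 without Dnmt1 KO replicate 1 and to 6 without Dnmt1 KO replicate 2 of that day. The 59 fell to 25 without Dnmt1 KO day 1 replicate 1 and to 27 without replicate 2.

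The 6 bins with over 500 control calls were called lower both at day 11 and from day 1 to days 6 to 11, and 4 of them made up all the calls from day 1 to day 3. They comprised Gm10800 (chr2:98507000-98507499), Gm10718 (chr9:3024000-3024499), Gm10722 (chr9:3001000-3001499), Sfi1, Gm11400 and Dux. The 3 with the most calls held 1854368, 229266 and 107545 control calls, where the median bin had 63. They held at most 15 CpGs in NCBIM37, and passed the limit of 40 positions only through listed cytosines outside a CpG of that sequence. Whether their calls come from several copies of a repeat was not tested. Gm10800 read 82.9% in control at day 11, and in Dnmt1 KO 77.9% at day 1 and 43.6% at day 3, then 38.6%, 36.7% and 35.6% at days 6, 9 and 11. Gm10718 and Gm10722 read 38.7% and 39.3% in Dnmt1 KO over days 6 to 11, above the median bin.

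Dux codes for a transcription factor of the 2-cell embryo and lies in a tandem array. Its bin (chr10:57687000-57687499) read 73.9% in control at day 11 and 75.3% in Dnmt1 KO at day 1, and 16.2% in Dnmt1 KO over days 6 to 11. Dnmt1 KO was 61.5 points below control at day 11 (adjusted p = 1.69e-08 by the quasi-binomial fit). Sfi1, which codes for a centrin-binding protein of the spindle poles, read 67.0% in control and 26.8% in Dnmt1 KO at day 11 (adjusted p = 9.88e-15 by the same fit). The bins of Dux and Sfi1 each held over 500 control calls, where the median bin had 63. Whether their calls come from several copies was not tested either.

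The other 11 bins called at day 11 read 77.8% to 100% in control at that day, over 11 to 54 calls, and 0% to 26.9% in Dnmt1 KO. At 1700018B08Rik (chr8:124066000-124066499) 92.6% of 27 calls were methylated in control and 0% of 24 in Dnmt1 KO, which allows a share of up to 12.5% at 3 calls. Neither of its 2 bins had a methylated call in Dnmt1 KO over days 6 to 11. Wdr20b, with bins of 74.2% and 90% in control, read 100% of 11 calls in control and 0% of 18 in Dnmt1 KO at day 11 in the bin called (adjusted p = 0.0422). Pnmal2 read 87.0% and 3.70%. The pseudogenes Gm15784, Gm5829 and Gm9923 read 0% to 11.11% in Dnmt1 KO at day 11 against 94.4% to 100% in control. Of the 17 bins, 10 were also called from day 1 to days 6 to 11, where 19.2% of the bins at gene starts and 3.6% of all dense bins were called. The 6 bins with over 500 control calls are among these 10. Both comparisons used the Dnmt1 KO libraries of day 11, so the overlap is no independent support.

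The bins were also described in classes of their level in control on days 1 to 9, the values that had chosen them, so the order of the classes supports nothing. The bins that read 60% to 70% in control on days 1 to 9 kept 13.98% ± 0.932 (SD, n = 5) over days 6 to 11, and their 5 libraries ranged from 13.0% to 15.2%. Bins of 70% to 80% kept 24.1% ± 2.01, bins of 80% to 90% kept 26.6% ± 2.00 and bins of 90% to 100% kept 30.9% ± 2.79 (SD, n = 5 each). Neighbouring classes above 70% overlapped between libraries. The classes already differed before most of the loss, with 54.9% and 55.7% in the lowest and 83.0% and 85.1% in the highest class in the 2 Dnmt1 KO libraries of day 1. With control day 11, which did not choose the bins, the level of single bins in Dnmt1 KO at day 11 had a Pearson's r of 0.27 and a Spearman's rho of 0.251 over 92 bins with at least 15 calls on both sides and under 1000 control calls, given as a description of points that share depth and base composition. The 24 bins that shared their start with an unmethylated dense bin had a median of 9.25% over these days, against 22.2% for the other 315. They were also lower before, with 64.1% against 78.3% in control at day 11 and 50% against 79.3% in Dnmt1 KO at day 1.

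**Figure D3:**
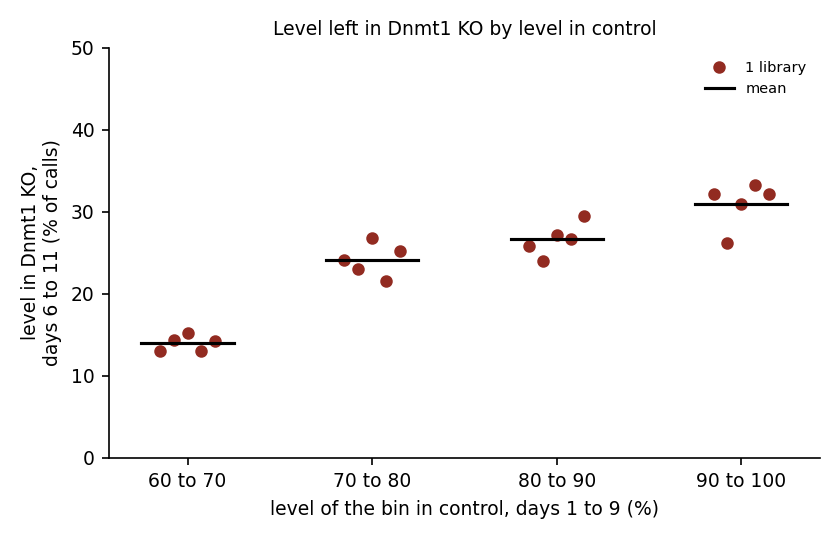
Methylation level in Dnmt1 KO at days 6 to 11 in percent of calls (vertical axis) of the bins at gene starts, in classes of their level in control at days 1 to 9 in percent (horizontal axis), with 1 point for each of the 5 libraries and a bar at the mean. The lowest class lies between 13.0% and 15.2% and the highest between 26.2% and 33.3%.

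The median level left was compared by position and gene type, without a test. Over days 6 to 11 it was 20.9% for bins that held the start, 20.3% downstream of it and 22.0% upstream. It was 20% for protein-coding genes, 22.8% for pseudogenes, 20% for processed transcripts and 18.2% for miRNAs. The types with few bins lay farther apart, at 14.3% for 9 lincRNAs, 24.8% for 4 snRNAs and 31.3% for the 2 other small RNAs. Bins with coding sequence had 20.9%, those with noncoding exons only 20%, those in introns 17.2% and those outside genes 28%, the latter over 21 bins.

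The methylation level varied less around these starts than CpG density did. These starts were chosen for a dense and methylated bin within 1 kb, so the CpG peak and the level near the start were partly set by the choice. In bins counted outward from the start over the 326 genes assigned to the bins, the mean number of CpGs was 19.2 in the bin with the start, 14.9 in the next and 5.62 at 5 kb upstream. Control day 11 read 64.6% at the start and 66.8% at 5 kb upstream, and Dnmt1 KO over days 6 to 11 read 23.2% and 24.4%. Over the whole 10 kb control day 11 ranged from 62.2% to 73.3% and late Dnmt1 KO from 22.3% to 29.5%, both highest in the bin 1.5 kb downstream.

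**Figure D4:**
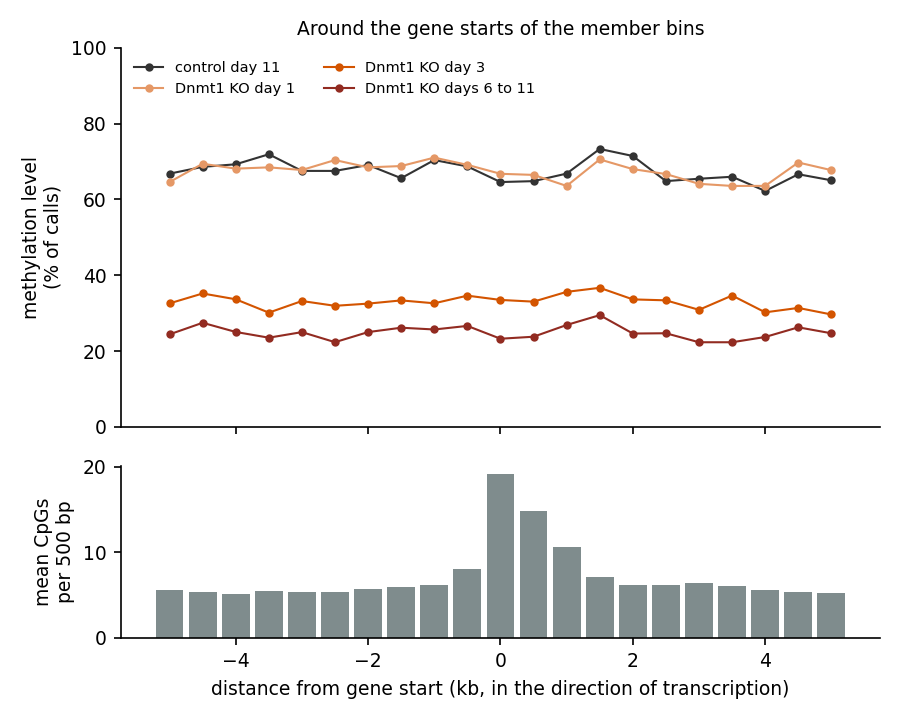
Methylation level in percent of calls (top) and mean CpGs in each 500 bp (bottom) by distance in kb from the starts of 326 genes, in the direction of transcription, for control day 11 and Dnmt1 KO at day 1, day 3 and days 6 to 11. CpG density peaks at 19.2 at the start, and the late Dnmt1 KO level stays between 22.3% and 29.5%.

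Germline genes supplied 9 of the bins. Of 71 listed germline genes annotated on autosomes, 47 had a covered dense bin at the start, with at least 30 control calls. Over all gene starts, 339 of 22657 such bins were methylated. Genes and bins are unlike counts, and the difference was not tested. From day 1 to days 6 to 11, 2 of 7 tested germline bins fell and the other 5 did not pass the quasi-binomial test. By value 6 of the 7 were below day 1, and 6 were lower at an unadjusted p under 0.05. Called were 19.2% of the bins at gene starts and 3.6% of all dense bins, and lower at unadjusted p were 59.7% and 13%. At day 11, 0 of 6 tested were called by the same fit, 4 were lower at an unadjusted p under 0.05 and all 6 were below control by value. The shares there were 6.94% of the bins at gene starts and 0.916% of all dense bins, and 46.1% and 8.66% at unadjusted p. With so few bins, nothing particular to the germline genes can be read from these counts. Their median was 70.6% in control at day 11 and 18.2% in Dnmt1 KO over days 6 to 11.

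Dazl, an RNA-binding protein needed for germ cell development, had 22 of 22 and 13 of 13 calls methylated in the 2 Dnmt1 KO libraries of day 1. It had 3 of 15 and 5 of 5 at day 3, 3 of 10 at day 6, 2 of 2 and 2 of 14 at day 9, and 3 of 3 in the only library of day 11 with calls. The late libraries overlapped those of day 1 only through libraries of at most 3 calls. The level over days 6 to 11 was 65.5 points below day 1 (adjusted p = 0.015, quasi-binomial fit), and control at day 11 had 6 of 9 and 6 of 8.

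Dpep3, a dipeptidase of the testis, had 10 of 10 and 13 of 13 calls methylated in Dnmt1 KO at day 1. It had 0 of 4 and 0 of 7 at day 3, 0 of 11 at day 6, 2 of 14 in 1 library of day 9 and 7 of 19 in 1 library of day 11. Every later library lay below both libraries of day 1, by 79.5 points over days 6 to 11 (adjusted p = 0.0064, quasi-binomial fit). Fkbp6, which codes for a protein needed in meiosis, read 18.2% in Dnmt1 KO over days 6 to 11 against 80% at day 1, which did not pass the test (adjusted p = 0.125, quasi-binomial fit).

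Tdrd9, a helicase of the piRNA pathway, had no call in Dnmt1 KO at day 9. It had 31 of 34 calls methylated in control at day 11 and 7 of 20 and 6 of 19 in Dnmt1 KO at day 11, without passing the test (adjusted p = 0.106, quasi-binomial fit). Tex12, a component of the synaptonemal complex, read 66.7% at day 1 and 16.0% over days 6 to 11 (adjusted p = 0.378, quasi-binomial fit). Sohlh2, a transcription factor of early germ cells, went the other way by value, with 1 of 7 calls at day 1, 4 of 16 at day 6, 8 of 19 at day 9 and 11 of 20 at day 11 (adjusted p = 0.893, quasi-binomial fit). Sycp1, Stra8 and Slc25a31 read 3.23%, 18.2% and 10% over days 6 to 11.

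**Figure D5:**
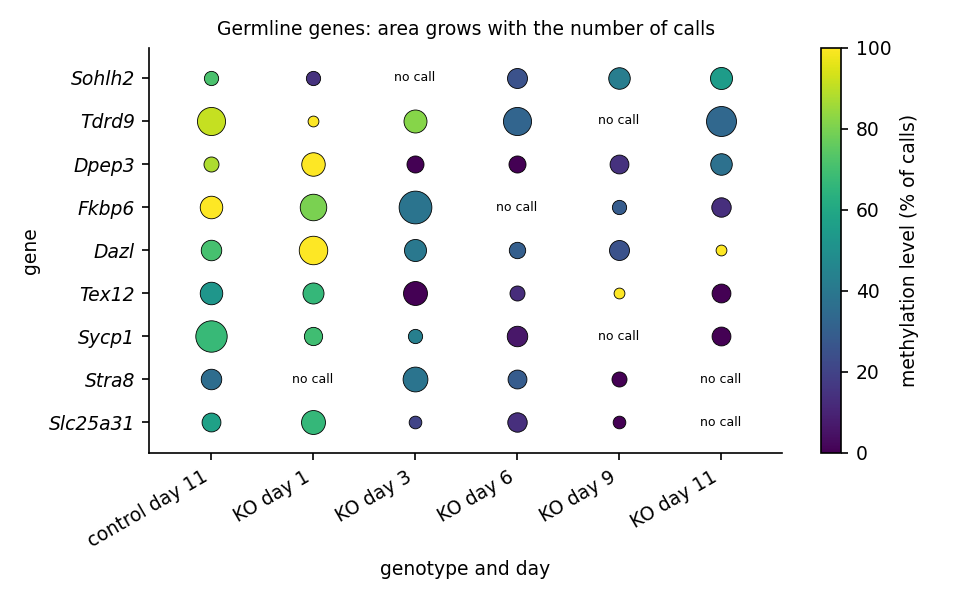
Methylation level in percent of calls (colour) of the 9 germline bins (vertical axis) in control at day 11 and in Dnmt1 KO by day (horizontal axis), where the area of a point grows with its number of calls and "no call" marks a day without any. Dpep3 goes from 100% at day 1 to 0% at days 3 and 6, while Sohlh2 goes from 14.3% at day 1 to 55.0% at day 11.

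Further genes used in the testis were gathered after the bins were known, as 21 bins of 20 genes, and their number is no result. From day 1 to days 6 to 11, 4 of 21 fell and 20 were below day 1 by value, near the share of 19.2% over the bins at gene starts, against 3.6% of all dense bins. At day 11, 1 of 13 tested was called lower and 10 were below control by value, where 6.94% of the bins at gene starts and 0.916% of all dense bins were called. At an unadjusted p under 0.05, 4 of the 13 were lower, against 46.1% and 8.66%. Spesp1, Pdha2 and Tssk1 lay above control at day 11 by value, without passing the test. The late median was 14.3%. Ccin, which codes for the sperm head protein calicin, held 2 of the bins. The first (chr4:43996500-43996999) had 18 of 22 and 11 of 22 calls at day 1, then 1 of 12 at day 6, 0 of 27 in 1 library of day 9 and 3 of 30 in 1 library of day 11 (adjusted p = 0.00643, quasi-binomial fit). Aldoart2, an aldolase retrogene of sperm, went from 25 of 25 and 2 of 2 at day 1 to 0 of 13 at day 6, 2 of 14 and 4 of 10 at day 9, and 2 of 19 at day 11 (adjusted p = 0.000887). Tktl2, a transketolase-like gene, read 83.8% at day 1 and 3.12% over days 6 to 11 (adjusted p = 0.00413). Among the bins with the most calls that did not pass the test, Hipk4, a protein kinase gene, had 0 of 12 and 15 of 15 calls at day 1, then 3 of 18 at day 6, 1 of 20 and 1 of 8 at day 9 and 17 of 21 in 1 library of day 11 (adjusted p = 0.876, quasi-binomial fit). Its libraries of day 1 were at 0% and 100%, and the late ones lay between them. Rpl39l, a ribosomal protein gene copy, had 8 of 9 at day 1, 0 of 25 at day 6, 8 of 35 at day 9 and 0 of 5 and 2 of 8 at day 11 (adjusted p = 0.121, quasi-binomial fit). Spesp1, which codes for a sperm protein, had 0 of 3 and 5 of 6 at day 1 and 31.1% over days 6 to 11. The second bin of Ccin (chr4:43997000-43997499) read 70.97% at day 1 and 9.80% over days 6 to 11 (adjusted p = 0.0325, quasi-binomial fit). Tssk2 was the only bin of the 21 above day 1 by value, with 29.4% at day 1 and 58.1% over days 6 to 11, and did not pass the test.

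The imprinted genes Nnat, Meg3 and Igf2 supplied 3 bins, of 25 listed imprinted genes with a covered dense bin. Over all gene starts 339 of 22657 covered dense bins were methylated, and the difference was not tested. By the quasi-binomial fit 0 of the 3 were called from day 1 to days 6 to 11, with 1 lower at an unadjusted p under 0.05. At the shares of 19.2% of the bins at gene starts and 3.6% of all dense bins, a count of 0 of 3 says little. Meg3, the maternally expressed long noncoding RNA of its cluster, had 7 of 7 calls methylated at day 1, 8 of 12 at day 6 and 0 of 8 and 0 of 5 at day 9. The bin of Igf2, a growth factor gene, had 9 of 9 and 2 of 2 at day 1, 3 of 5 at day 6, 5 of 5 at day 9 and 2 of 7 at day 11. Nnat, which codes for neuronatin, read 74.3% in control on days 1 to 9 but 2 of 13 and 21 of 43 in control at day 11, and 5 of 30 and 1 of 20 in Dnmt1 KO already at day 1. In Dnmt1 KO it then had 0 of 32 calls at day 3 and 19 of 66 (28.8%) over days 6 to 11, above the 12% of day 1 by value. Mir127, a miRNA gene of the cluster that holds Meg3, read 92.9% at day 1 and was called lower from day 1 to days 6 to 11.

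No clustered protocadherin gene and no listed zinc finger gene had such a bin at its start. A covered dense bin was present for 284 of 427 zinc finger genes and 3 of 25 protocadherins. Over all gene starts 339 of 22657 covered dense bins were methylated, so a list of this size would hold few. These counts and the next were not tested and are no result. Of 127 Hox, Pax, Sox, Gata, Fox, Lhx and Nkx genes with a covered dense bin, 1 had a methylated one, the forkhead gene Foxs1. It read 60.8% in control on days 1 to 9, 43.8% in control at day 11 and 16.4% in Dnmt1 KO over days 6 to 11.

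Some bins read high in Dnmt1 KO on the late days. Ranked at day 9 among 133 bins with at least 15 calls, the 6 highest were 1810008B01Rik, 4930589P08Rik, Gm15703, Gm12966, Gm16327 and Gpr81, with a median of 71.5%. In the libraries of days 6 and 11, which did not choose them, their pooled level was 41.3% and they ranged from 30% to 80.95%. The 6 lowest, Rps26-ps1, Gm5446, Ccin, 4930593C16Rik, Rpl36-ps2 and Sap25, had 0% at day 9 and a pooled 11.6% at days 6 and 11, with a range of 2.63% to 21.4%. The 2 ranges did not overlap, and the median of all 133 bins was 24.4%. The ranges pool days 6 and 11, and single days did overlap. Gm15703 had 2 of 15 calls methylated at day 6, and Sap25 had 4 of 10 at day 11. In Dnmt1 KO at day 1, Sap25 already had 3 of 36 and Rpl36-ps2 13 of 38. Sap25 also had only 11 of 44 in control at day 11. Rps26-ps1, Gm5446, Ccin and 4930593C16Rik read 65.9% to 86.2% in Dnmt1 KO at day 1. The difference between the 2 sets was not tested. Over 110 bins with at least 15 calls on both sides and under 1000 control calls, the levels of day 9 and of days 6 and 11 had a Pearson's r of 0.278 and a Spearman's rho of 0.289. These points share depth and base composition, and the correlation is a description in sparse counts.

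The bin highest at day 9 (chr8:126829000-126829499) lay 908 bp downstream of the start of 1810008B01Rik, a processed transcript, and overlapped annotated coding sequence. It had 25 of 29 calls methylated in 1 library of day 9 and 15 of 18 and 2 of 3 at day 11. It had 12 of 14 and 3 of 3 at day 1 and 23 of 23 and 8 of 8 in control at day 11, so the late libraries overlapped those of day 1. Gm16327, shown above, had 24 of 30 and 23 of 24 calls at day 1, 10 of 13 at day 6, 11 of 22 and 8 of 8 at day 9, and 1 of 10 in the only library of day 11 with calls. Rps26-ps1, at the low end, had 1 of 4 calls methylated at day 6, 0 of 20 and 0 of 8 at day 9, 0 of 15 and 0 of 19 at day 11, and 7 of 9 at day 1 (adjusted p = 0.00451, quasi-binomial fit).

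Of 297 bins with at least 20 calls over days 6 to 11, 16 (5.39%) read 50% or more, against 10.7% of 3582 bins away from gene starts. They include bins of Kcnv2, a potassium channel subunit, at 63.6%, and Tssk2, a testis kinase, at 58.1%, both named after their values were seen. At day 1 Kcnv2 read 50% of 18 calls and Tssk2 29.4% of 17, so both read higher late than at day 1 by value. The highest was Lypd2 with 19 of 20 calls, all from the library of day 6.

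At the limit of the choice, the bins just inside were those of U2 (60% of 105 control calls), Gm13331 (60% of 60) and Oxct2a (60% of 55). Those just outside lay at Gm10198 and Gm10736 (59.6% of 52), Paqr6 (59.6% of 47) and Gm6054 (59.6% of 47). In Dnmt1 KO over days 6 to 11 the former read 10.3%, 8.70% and 13.95% and the latter 10.3%, 7.69% and 1.32%.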

How the data were processed

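Per the methods, the authors used Trim Galore on the paired reads, Bismark with NCBIM37 for alignment, and removal of duplicates. The submitters' processing notes give Bismark 0.12.3 and the methods give another version, and which one made these files was not settled. The deposited tables held counts of methylated and of unmethylated calls for each covered cytosine, and a deposited percent that was not used further. No normalization was applied, and any minimum coverage before deposition is not given in the sources used here. Calls were summed in 500 bp bins, both strands together. The sequence and GENCODE vM1 genes were of the same build. Listed cytosines outside a CpG of that sequence were kept in the main values.

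Bins with at least 5 calls on each side entered a quasi-binomial fit in R 4.3.3, with each genotype at each day having its own level. The spread was shared by all 18 libraries, so that the lone day 6 libraries were assumed to vary like the rest. It was moderated in limma 3.58.1 robustly toward a trend on the level of the bin over all libraries. It was never taken below that of independent calls. For the median bin the moderation was complete (infinite prior degrees of freedom), so that its spread was that of the trend and not its own. The trend and the robust step were chosen after the spread, the calls and simulated data were seen. The simulated data were themselves redrawn, with calls in fragments of 3 that share a state in methylated bins, after a first form in which few changed bins were recovered and a larger share of calls was false. Adjusted p-values are Benjamini-Hochberg values over all dense bins tested, and tests are two-sided. In simulated data of the comparison of days 6 to 11 with day 1 over 32986 bins, 8 of 587 calls were of unchanged bins. In levels by library and in the profile around starts, cytosines with over 20 calls in any library were left out, in place of the planned sum of all calls and after the data were seen. Counts of 0 allow a share of 3 calls of the total, which, like all counting intervals, covers counting error only, since calls of the same read are not independent.

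The bins and lists were chosen with earlier results of these data known. Named were the bins of the gene lists (with values for the 6 with the most calls in Dnmt1 KO at days 9 and 11 where a list had more, all 9 for germline genes), the 6 highest and 6 lowest of Dnmt1 KO day 9 with at least 15 calls, the 3 on either side of the 60% limit and the 3 with the most calls. Bins called at day 11, late bins at 50% or more, the further testis genes and Mir127 were named after their values were seen.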

Additional observations from a re-analysis of the deposited data

How the results depend on the processing

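Summed without leaving out any cytosine, the bins read 36.9% in Dnmt1 KO over days 6 to 11 and 82.8% in control at day 11, with 99.0% of the calls from the 3 bins with the most calls. They moved to 24.7% and 70.2% with CpG cytosines of NCBIM37 only, and to 24.7% and 70.2% without cytosines of over 20 calls, each over 336 bins. As the mean of the levels of the bins they moved to 23.9% and 72.3%. On these sums the other choices of bins and leaving out 1 library, with ranges of 36.4% to 37.2% and 82.6% to 82.9%, could not show a change, since the bin with the most calls, Gm10800, stayed in. The level used in the report, which took the place of the planned sum after the data were seen, was 24.9% and 69.98% over the 339 bins, and the same choices were repeated on it. It moved to 28.3% and 80.7% with a control level of at least 80%, and to 27.4% in Dnmt1 KO with at least 50 positions. Bins chosen with control day 11 read 78.2% in that control, which then chose them. Without 1 library it ranged from 24.4% to 25.4% and from 68.3% to 71.7%. With the start inside the bin or 60 control calls it moved by less than 1 SD.

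For the counts of bins called lower at day 11, from day 1 to days 6 to 11, from day 1 to day 3 and from day 3 to days 6 to 11, the values were 17, 59, 4 and 0. Testing all bins with at least 20 positions gave 71, 153, 42 and 0. limma on log2 ratios, with a pseudocount of 0.5, gave 116, 101, 107 and 9, with 0, 1, 3 and 8 called higher. A spread moderated toward 1 value for all bins, added after the data were seen, gave 71, 137, 47 and 3. Leaving out the robust step, also added after the data were seen, gave 16, 52, 4 and 0. The cause of the larger of these differences was not tested. Leaving out 1 library gave 5 to 9, 25 to 53, 4 to 5 and 0, where a lone library was assumed to vary like the other groups. Other minimums of calls or difference stayed within 1.5 times.

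Whether replicate numbers pair the samples could not be decided. The differences between replicates 1 and 2 correlated between -0.0361 and 0.0135 over 28 pairs of groups and over 0.1 in 0 of them. These were differences of single bins of at least 20 positions with as few as 5 calls in a library, where counting error can hide a shared effect. With the replicate number as a block the counts were 18, 50, 5 and 0. The median was 3 to 11 calls for a bin in a library, and other depths were not tested.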
